A study of Rattus norvegicus with 34 samples.

Results

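Positions 80, 114, 115, 116, and 226 of the TaqMan microRNA array card A, 5 of its 384 wells, are described here. They were followed through all 17 rat libraries of the card. A library is the RNA of 1 tissue or compartment measured on 1 card. The 5 positions were chosen from the values of the 12 tissues, because expression at each was higher in each of 8 epithelial tissues than in each of 4 other tissues. The file of values numbers the wells and pairs none with a miRNA, and the array definition was not used here. Each position is therefore called by its number, and neither a miRNA name nor a sequence is given.

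miRNAs are small noncoding RNAs that repress the translation or the stability of messenger RNAs, and many are restricted to certain cell lineages. In epithelial cells, which line tubules, ducts, and gland acini, lineage miRNAs such as the miR-200 family hold down the transcription factors ZEB1 and ZEB2 and so help to keep the cells joined in sheets. The series sets organs built of tubules, ducts, or acini beside other organs, and parts of the nephron beside each other. No position here is assigned to that family or to any other.

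All rats were of the Sprague-Dawley strain and 4 weeks old, of both sexes, and untreated as far as the labels say. Total RNA was taken from 12 whole tissues: kidney, lung, small intestine, bile duct, prostate, pancreas, lacrimal gland, and salivary gland (the 8 epithelial tissues), and liver, heart, skeletal muscle, and spleen (the 4 other tissues). These group names are labels only, since the study itself counts liver among the tissues with tubular segments. Glomerulus, proximal tubule, bronchial gland, mammary gland, and intestinal villus were cut from sections by laser microdissection, and these 5 samples were preamplified for 12 cycles, which the whole tissues were not. Each tissue or compartment has 1 library, how many animals went into it is not given in the sources used here, and no difference between libraries can be set against replicate libraries. Because no well was named, the labelled tissues could not be checked against defining miRNAs.

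The measurement is Cp, the cycle number at which the signal of a well passes a set threshold. More template gives a lower Cp, and each cycle is a doubling where amplification is complete. A well was taken as detected at a Cp of at most 35, the limit of the study. Between 129 (pancreas) and 253 (lung) positions were detected in a library. The Cp of each library was scaled by subtracting its median over the 78 positions detected in all 17 libraries, so a scaled Cp of -3 means 3 cycles earlier than the typical shared position. Positions 11, 12, 35, and 36 gave nearly the same Cp within a library and were left out of every comparison. Their SD within a library was between 0.061 and 0.841 cycles and is the only measure of well-to-well error, for an abundant RNA. Pancreas stood apart with the latest scale (31.2, against 24.0 to 28.04 in the other tissues). Amplified wells above a Cp of 43 were present in 5 tissue libraries, called longer runs here: prostate, bile duct, salivary gland, lacrimal gland, and pancreas. Bronchial and mammary gland were longer runs as well, and the other 3 microdissected samples were not. The paper gives no number of cycles, so this name rests on the Cp values alone. In whole tissues, fewer cells of a type and less RNA per cell cannot be told apart.

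At position 114 the scaled Cp of the epithelial tissues was -5.99 in prostate, -5.55 in lacrimal gland, -4.95 in salivary gland, -4.44 in kidney, -4.16 in small intestine, -2.53 in pancreas, -2.29 in lung, and -1.26 in bile duct. The other tissues came later, with 0.08 in liver, 2.34 in skeletal muscle, 4.23 in spleen, and 5.59 in heart. The prostate and heart libraries thus marked the ends of the range, and liver lay nearest to the epithelial tissues. Without any scale, position 114 had the lowest Cp of the 380 positions in prostate, the 2nd lowest in lacrimal and salivary gland, and only the 165th lowest in heart.

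Position 115 gave nearly the same order. Its scaled Cp was -5.98 in prostate, -4.68 in lacrimal gland, -4.38 in salivary gland, -4.29 in small intestine, -3.37 in kidney, -2.49 in bile duct, -1.94 in pancreas, and -1.72 in lung. It was 0.76 in liver, 3.30 in skeletal muscle, 5.09 in heart, and 5.15 in spleen. Lung, the epithelial tissue with the lowest expression at this position, and liver were 2.48 cycles apart.

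At position 226 the scaled Cp was -4.84 in prostate, -4.26 in salivary gland, -3.50 in kidney, -2.94 in small intestine, -2.91 in lacrimal gland, -2.20 in bile duct, -1.07 in pancreas, and -0.12 in lung. It was 3.08 in skeletal muscle, 3.38 in liver, 7.26 in spleen, and 7.38 in heart. Kidney was thus among the 3 tissues with the highest expression at position 226, and lung had the lowest expression of the 8.

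Positions 80 and 116 ranked the tissues differently. At position 116 the scaled Cp was -5.90 in lacrimal gland, -5.72 in prostate, -5.61 in salivary gland, -4.40 in pancreas, -3.58 in small intestine, -2.65 in lung, -1.75 in bile duct, and 0.00 in kidney. In the other tissues it was 1.27 in heart, 2.24 in skeletal muscle, 2.92 in liver, and 3.47 in spleen. The 4 gland tissues came first, kidney came last of the 8, and heart, the last tissue at positions 114 and 226, was here the nearest of the other 4.

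Position 80 had the latest Cp of the 5 positions in all 17 libraries. Its scaled Cp was -2.40 in prostate, -1.70 in lacrimal gland, -0.91 in salivary gland, -0.02 in pancreas, 1.01 in small intestine, 1.76 in lung, 2.66 in bile duct, and 3.06 in kidney. It was detected in heart (7.95) and spleen (7.85) only among the other tissues. In liver it amplified at a Cp of 37.0, past the limit, and in skeletal muscle it did not amplify. Their scaled values of 6.96 and 7.21 come from setting undetected wells to 35 and are lower bounds.

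**Figure D1:**
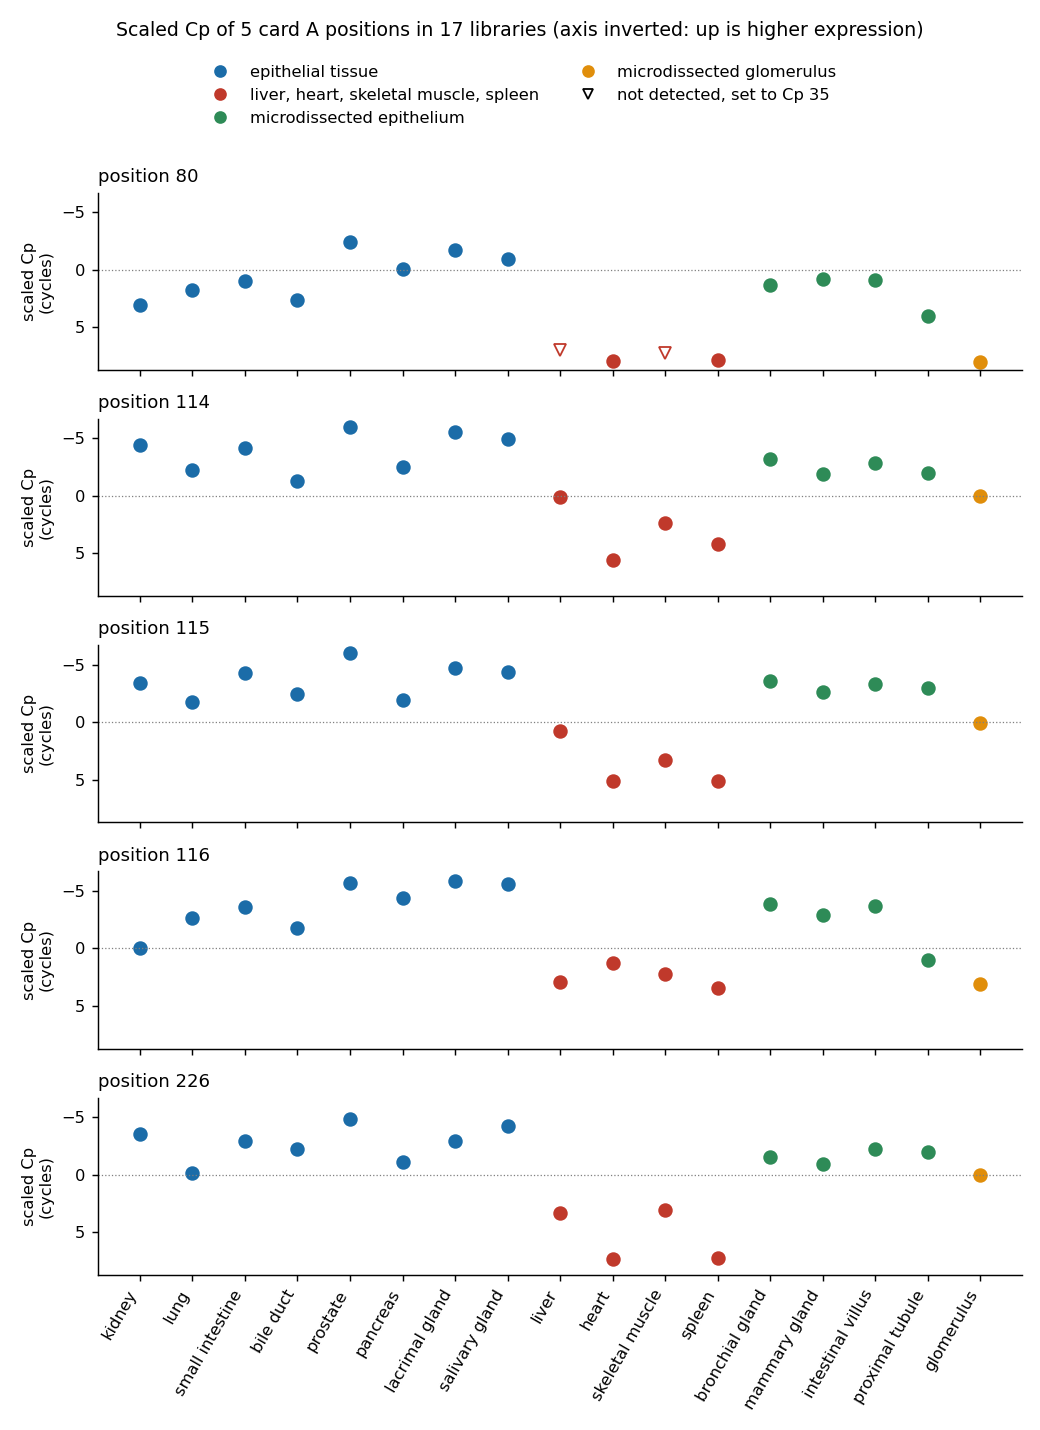
Scaled Cp in cycles (vertical axis, inverted so that higher expression is up) of the 5 positions in the 17 libraries, 1 point per library. Blue points are the 8 epithelial tissues, red points the 4 other tissues, green points the microdissected epithelia, and the orange point the glomerulus; open triangles are undetected wells set to a Cp of 35. The epithelial tissues lie above the red points at every position, and kidney falls to 0.00 at position 116 while it stays at -4.44 at position 114.

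The separation of the 8 tissues from the 4 chose these positions, so it is given as a description and without a test. The gap between the nearest tissues was 3.90 cycles at position 80, 3.20 at 226, 2.48 at 115, 1.34 at 114, and 1.27 at 116. The group means lay between 6.17 (position 116) and 8.00 cycles (position 226) apart. With the scale used here 6 of 380 positions, or 1.58%, separated the groups, since position 205 did so too with a gap of 0.14 cycles, and its gap was -0.06 with the scale taken over the 12 tissues. Just outside were position 98 (gap -0.50, detected in 7 of 12 tissues), position 97 (-1.06), position 135 (-1.07), and position 92 (-1.24). Without scaling, positions 80, 116, and 226 still separated the groups, with gaps of 2.46, 0.95, and 0.79 cycles. At positions 114 and 115 the groups then overlapped by 0.50 and 0.41 cycles, with the late library of pancreas at raw Cp values of 28.6 and 29.2 against 28.1 and 28.8 in liver.

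Several neighbours in these orders were not separated by more than the error between wells. Of the 7 steps between neighbouring epithelial tissues, between 3 (position 116) and 5 (positions 114 and 226) were at most 0.841 cycles, the largest SD of the repeated wells. The order among prostate, lacrimal gland, and salivary gland at position 116 and that of kidney and small intestine at position 114 belong to these. The step from kidney to the next tissue at position 116 was larger, 0.00 against -1.75 in bile duct.

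The 5 positions were then compared with each other across the 8 epithelial tissues. The correlation is a description over 8 single libraries that share a scale, and the positions were chosen on the contrast with the other 4 tissues, which were left out here. Positions 80 and 116 rose and fell together, with a Pearson correlation of 0.96 and a Spearman correlation of 0.98. Positions 114 and 115 had 0.90 by both measures, positions 115 and 226 had 0.89 and 0.83, and positions 114 and 226 had 0.79 by both. Between a position of the first pair and a position of the other 3 the Pearson correlations were lower, from 0.31 (116 and 226) to 0.70 (80 and 114). The median over all 10 pairs was 0.69.

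These 2 groups of positions, 80 with 116 and 114 with 115 and 226, were formed after the values were seen. With the 4 microdissected epithelia added, 12 libraries in all, the 4 Pearson correlations within the groups were from 0.80 to 0.95 and the 6 between them from 0.30 to 0.69. When the 2 tissues farthest from the median of the first position were left out of the 8, the pairs within groups gave 0.77 to 0.99 and the pairs between groups 0.35 to 0.87. Of the pairs between groups, 2 then reached the range of the pairs within groups, and kidney was among the tissues left out in both. Positions 80 and 114 gave 0.87 without kidney and prostate, and positions 116 and 226 gave 0.78 without kidney and bile duct. Kidney and prostate were also left out for positions 80 and 115 and for positions 80 and 226, which gave only 0.64 and 0.50.

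A difference between the Cp of 2 wells of the same library does not depend on the scale. Over the 8 tissues the SD of this difference was 0.61 cycles for positions 80 and 116, 0.71 for 115 and 226, 0.73 for 114 and 115, and 1.07 for 114 and 226. For the 6 pairs between the groups it was from 1.46 to 2.21 cycles. This split depended on kidney. With kidney left out, the SD was 0.78 for positions 114 and 116 and 0.79 for 80 and 114, both between the groups. That was less than the 1.15 of positions 114 and 226 within a group. The remaining pairs between the groups then gave 1.19 to 1.43 cycles. Among all 4465 pairs of the 95 positions detected in the 8 tissues the median SD was 1.92 cycles. A difference as steady as that of positions 80 and 116 was found in 1.3% of pairs, and as steady as that of positions 114 and 115 in 3.11%. Over the 12 epithelial libraries these shares were 0.909% and 1.66% of 3741 pairs.

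**Figure D2:**
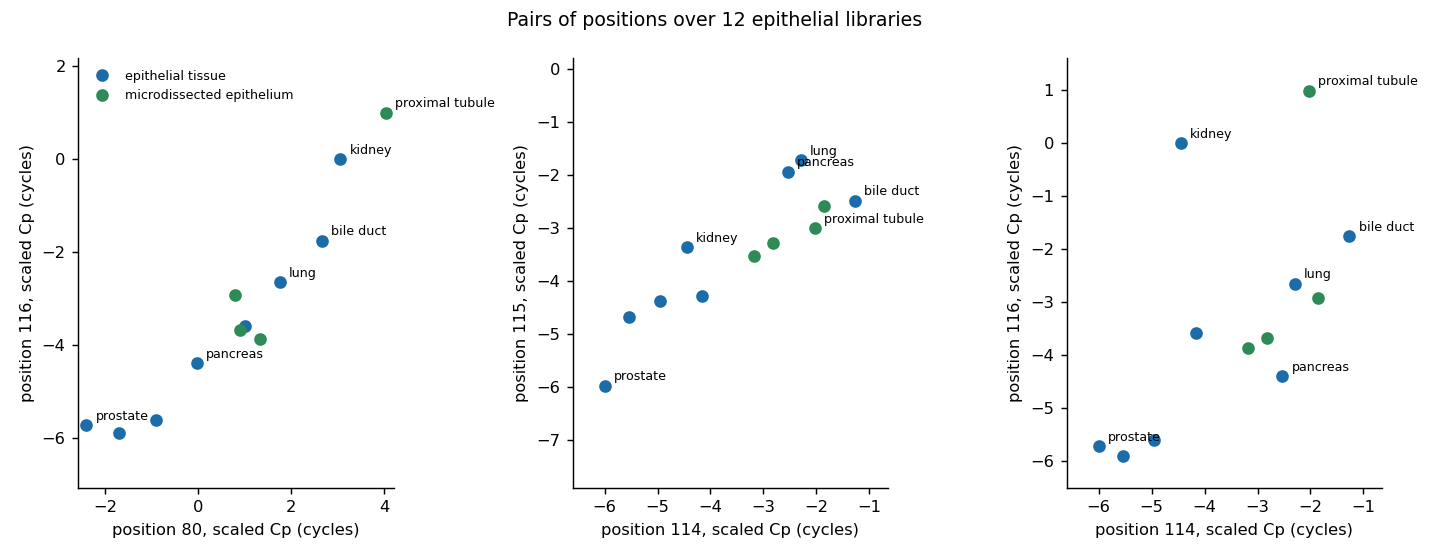
Scaled Cp in cycles of 1 position against another over 12 epithelial libraries, 1 point per library, blue for whole tissues and green for microdissected epithelia. Positions 80 and 116 (left, Pearson correlation 0.95) and positions 114 and 115 (middle, 0.88) lie along a line, while in the plot of positions 114 and 116 (right, 0.58) kidney and proximal tubule lie above the other libraries.

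Relations between the positions within a library were next read as Cp differences. Wells may amplify with different efficiency, so the difference itself is not an amount, and only its change from library to library is compared. Position 114 minus position 116 was -4.44 cycles in kidney, -3.03 in proximal tubule, and -3.04 in glomerulus. In the other 10 epithelial libraries it was from -0.58 (small intestine) to 1.87 (pancreas). The 3 libraries from the kidney were chosen for this comparison after the values were seen. Among the 4 other tissues the difference was -2.84 in liver, 0.10 in skeletal muscle, 0.76 in spleen, and 4.33 in heart, so that liver lay close to the renal libraries and heart far on the opposite side.

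Position 115 minus position 116 ran the same way, with -3.37 in kidney, -4.01 in proximal tubule, and -3.02 in glomerulus, against -0.74 (bile duct) to 2.46 (pancreas) in the 10 other epithelial libraries. Liver again lay nearest to the renal libraries, at -2.16, with 1.06 in skeletal muscle, 1.68 in spleen, and 3.83 in heart. Position 116 minus position 226 was 3.50, 3.00, and 3.04 cycles in the 3 renal libraries. In the 14 libraries that were not renal it was from -6.11 (heart) to 0.45 (bile duct), with liver at -0.47. How many of all pairs of positions on the card set these 3 libraries apart was not counted. The kidney and its microdissected parts thus had less signal at position 116 relative to positions 114, 115, and 226 than the other epithelial libraries, by several cycles. Preamplification differed among these 3 libraries, since kidney was not preamplified and the microdissected parts were.

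Position 80 followed position 116. Their difference was 3.06 in kidney and 3.04 in proximal tubule, the lowest of the 12 epithelial libraries, and from 3.32 (prostate) to 5.19 (bronchial gland) in the other 10. In glomerulus it was 4.96. Position 80 minus position 114 was 7.502, 6.07, and 8.00 cycles in kidney, proximal tubule, and glomerulus, against 2.51 (pancreas) to 5.17 (small intestine) in the other epithelial libraries. Position 114 minus position 115 stayed in a narrow band, from -1.08 (kidney) to 1.22 (bile duct), and its mean over the 10 epithelial libraries outside the kidney was 0.03 ± 0.68 (SD).

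**Figure D3:**
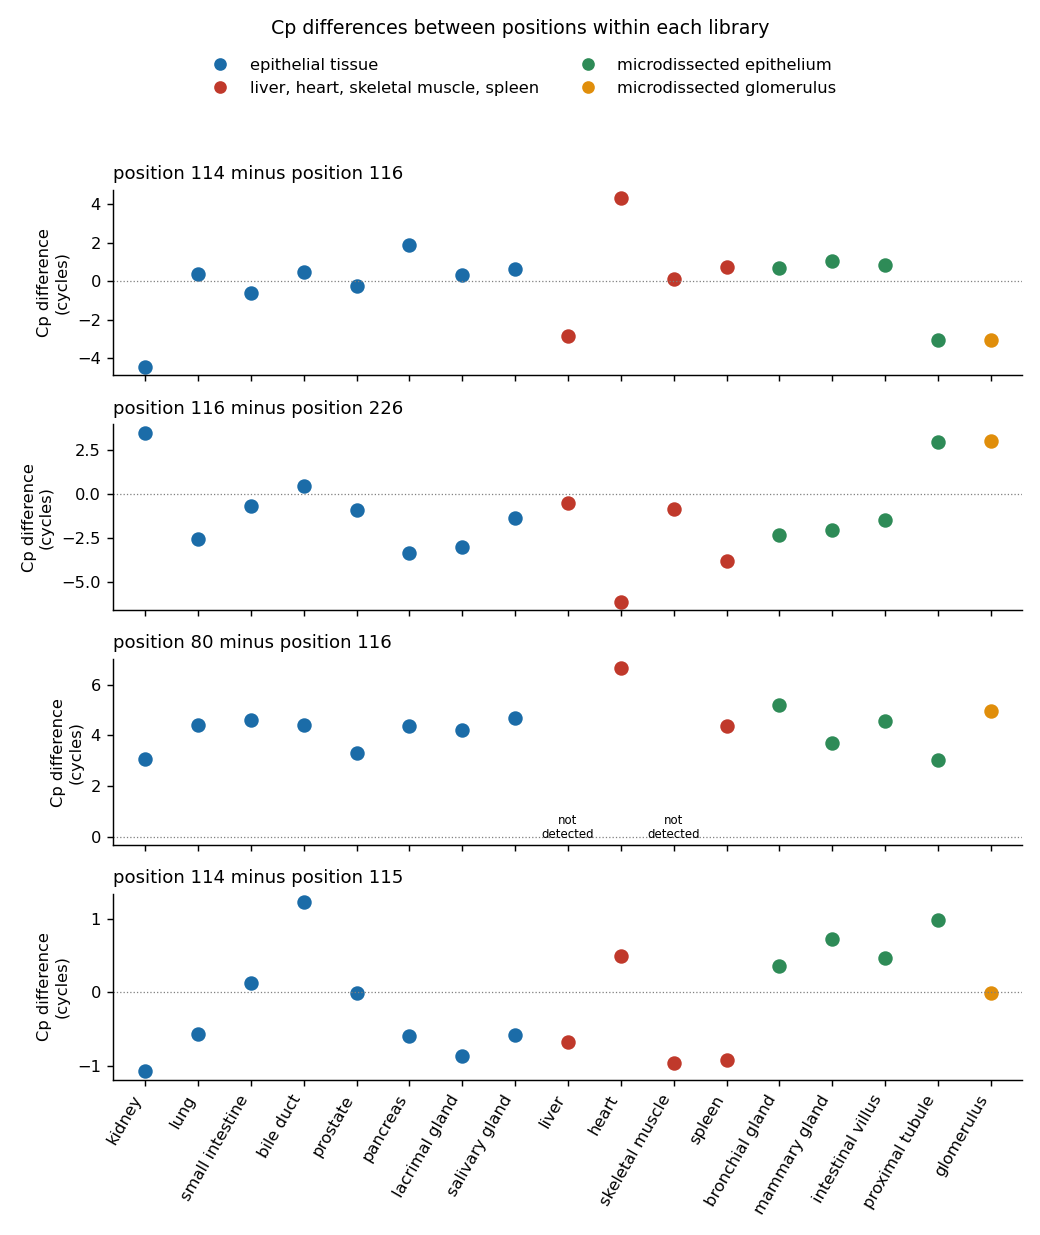
Cp difference in cycles between 2 positions of the same library (vertical axes, each with its own range) for the 17 libraries, colored by class. In the upper panels kidney, proximal tubule, and glomerulus stand together, at -4.44 to -3.03 for position 114 minus 116 and at 3.00 to 3.50 for position 116 minus 226; liver, at -2.84, lies near them in the first.

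The paper proposes that the balance between members of the miR-200 family may vary with germ layer, and names salivary and lacrimal gland as ectodermal. Position 114 minus position 116 was 0.65 in salivary gland and 0.35 in lacrimal gland. It was 1.87 in pancreas, -0.27 in prostate, 0.69 in bronchial gland, and 1.06 in mammary gland, so the values of salivary and lacrimal gland lay inside the range of the other 4 glands. Position 115 minus position 116 was 1.23 and 1.22 in salivary and lacrimal gland, again between prostate (-0.26) and pancreas (2.46). Position 116 minus position 226 was -1.35 in salivary gland and -2.99 in lacrimal gland, further apart from each other than bronchial (-2.32) and mammary gland (-2.02) were. Position 80 minus position 116 was 4.70 and 4.20, against 3.32 in prostate and 5.19 in bronchial gland. In the difference of position 114 and position 226, lacrimal gland had the lowest value of the 6 glands, -2.64, and salivary gland the highest, -0.69. All 6 glands were longer runs. In none of the 10 pairs did salivary and lacrimal gland both lie outside the range of the other 4 glands on the same side. Of those, bronchial and mammary gland were preamplified, which the whole glands were not. For position 80 minus position 114, salivary (4.04) and lacrimal gland (3.85) both exceeded prostate (3.59) and pancreas (2.51), but not bronchial gland (4.51). No other pair placed both on the same side of prostate and pancreas. The proposal of the paper was not tested by these values, because no position is assigned to a miRNA. Tubular tissues that are not glands were also left out, and the other 4 glands were not sorted by germ layer.

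The 4 gland tissues (pancreas, salivary gland, prostate, and lacrimal gland) were tested against the other 4 epithelial tissues (kidney, lung, bile duct, and small intestine). The choice of positions did not use this contrast, but it did use the values of these 8 tissues. The groups of tissues were also chosen with earlier results of these data known, so the p-values are a description. Tissues were the units, and with 70 choices of 4 from 8 the two-sided exact permutation test could not give a p below 0.0286. At position 80 the mean scaled Cp was -1.26 ± 1.03 (SD, n = 4) in the glands and 2.12 ± 0.92 (SD, n = 4) in the other tissues, a difference of -3.38 cycles (two-sided exact permutation test, p = 0.0286). At position 116 it was -5.41 ± 0.68 and -2.0 ± 1.53 (SD, n = 4 each), a difference of -3.41 cycles (two-sided exact permutation test, p = 0.0286). At both positions every gland had higher expression than every other epithelial tissue, and 6.73% of the 223 positions tested did so. After Benjamini-Hochberg adjustment over these 223 positions both had an adjusted p of 0.319 by the exact permutation test, and no position had a lower one.

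At the other positions the groups overlapped. The differences were -1.72 cycles at position 114, -1.28 at 115, and -1.08 at 226 (two-sided exact permutation tests, p = 0.171, 0.229, and 0.371), all with the lower mean in the glands on this scale. The median difference over the 223 positions was -0.24 cycles. Without scaling the differences at positions 80 and 116 fell to -1.15 and -1.18 cycles (two-sided exact permutation tests, p = 0.514 and 0.543), with the late pancreas library among the glands. At positions 114, 115, and 226 the direction turned without scaling, to 0.52, 0.96, and 1.15 cycles (two-sided exact permutation tests, p = 1, 1, and 0.857). All 4 glands were longer runs, and in the second group bile duct alone was. The part of this division of the libraries in these differences was not tested.

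In the microdissected samples, which the choice of positions did not use, expression at each of the 5 positions was higher in the 4 epithelia than in glomerulus. Of the 160 positions detected in the 4 epithelia, 15.6% showed this pattern. At position 115 the scaled Cp was -3.54 in bronchial gland, -3.30 in intestinal villus, -3.01 in proximal tubule, -2.58 in mammary gland, but 0.05 in glomerulus. At position 114 it was -3.18 in bronchial gland, -2.83 in intestinal villus, -2.03 in proximal tubule, -1.86 in mammary gland, and 0.03 in glomerulus. At position 226 it was -2.20 in intestinal villus, -2.0 in proximal tubule, -1.54 in bronchial gland, -0.90 in mammary gland, and again 0.03 in glomerulus. The epithelia were thus within 1.31 cycles of each other at these 3 positions, and proximal tubule stood among them.

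At the other pair of positions proximal tubule stood away from the other epithelia. At position 116 the scaled Cp was -3.86 in bronchial gland, -3.67 in intestinal villus, and -2.92 in mammary gland, against 1.00 in proximal tubule and 3.07 in glomerulus. At position 80 it was 0.79 in mammary gland, 0.89 in intestinal villus, and 1.33 in bronchial gland, against 4.04 in proximal tubule and 8.03 in glomerulus. At both positions proximal tubule lay between the glands and villus on the one hand and glomerulus on the other.

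Proximal tubule and glomerulus, both preamplified and both with scales close to each other (a difference of 0.008 cycles), were then compared directly. The proximal tubule is the segment of the nephron that reabsorbs most of the filtrate, and the glomerulus is the tuft of capillaries, podocytes, and mesangial cells that forms it. The raw Cp of proximal tubule and glomerulus was 30.0 and 34.0 at position 80, 23.0 and 26.0 at position 115, 27.0 and 29.0 at position 116, 23.9 and 26.0 at position 114, and 24.0 and 26.0 at position 226. The scaled differences were 3.99, 3.06, 2.07, 2.06, and 2.03 cycles in the same order, each toward higher expression in proximal tubule. If each cycle doubled the product, these would be 15.9-, 8.32-, 4.21-, 4.18-, and 4.09-fold differences. Of the 162 positions detected in both, 25.9% were higher in proximal tubule by over 0.5 cycles and 39.5% were higher in glomerulus. The median difference was 2.07 cycles over the 5 positions and 0.007 over the 162, with an SD of 1.83 over positions. At position 80, 6 of the 162 positions had as large a difference, itself included, and at position 226 there were 20.

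The Cp values of both libraries lay near whole cycles, with 88.2% and 86.6% of amplified wells within 0.05 cycles of a whole number, so the differences of the 5 positions were resolved as 4, 3, or 2 steps only. Differences among the 3 positions at about 2 cycles are below this resolution. When the scale was the mean Cp of the 4 repeated positions, which came 0.991 cycles later in glomerulus, the differences were 2.99, 2.06, 1.08, 1.06, and 1.03 cycles, all still toward proximal tubule. With 1 library of each compartment no test was possible.

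**Figure D4:**
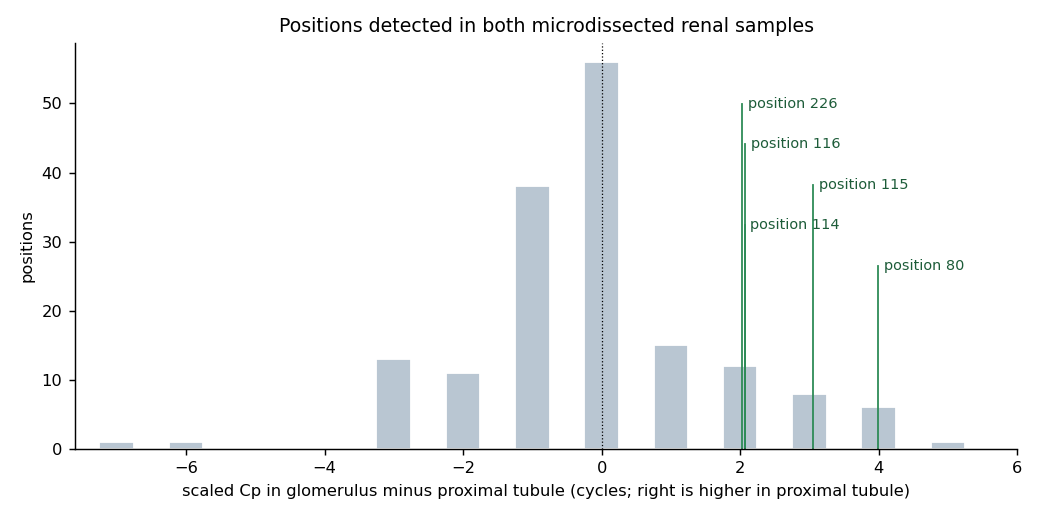
Number of card A positions (vertical axis) by the difference in scaled Cp between glomerulus and proximal tubule in cycles, over the 162 positions detected in both; bars are 0.5 cycles wide and green lines mark the 5 positions. All 5 lie to the right of 0, at 2.03 to 3.99 cycles, and the bars stand about 1 cycle apart.

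The whole organs were set beside their microdissected parts, with preamplification differing between them in each case. From kidney to proximal tubule the scaled Cp rose by 0.36 cycles at position 115, 0.98 at 80, 0.99 at 116, 1.5 at 226, and 2.41 at 114, where the SD of this difference over 179 positions was 1.55. From kidney to glomerulus it rose by 3.07 (position 116) to 4.97 cycles (position 80), with an SD of 2.12 over 171 positions. When each library was scaled instead to positions 11, 12, 35, and 36, an alternative added after the values were seen, glomerulus was still later than kidney at each of the 5, by 0.90 to 2.80 cycles. The direction for proximal tubule depended on the scale, since it was then earlier than kidney at positions 80, 115, and 116 (-0.19, -0.81, and -0.17 cycles) and later at positions 114 and 226 (1.24 and 0.33 cycles). The 2 parts are not all of the kidney, whose distal tubules and collecting ducts were not sampled separately.

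Intestinal villus was close to small intestine at positions 80 and 116, by -0.12 and -0.09 cycles, and later at positions 226, 115, and 114, by 0.73, 1.00, and 1.33 cycles. The SD over 196 positions was 2.43 cycles, larger than any of these. When scaled to positions 11, 12, 35, and 36, the villus was earlier than small intestine at each of the 5, the differences lying between -3.02 (position 80) and -1.56 cycles (position 114). Bronchial gland, cut from sections of the trachea, was earlier than whole lung at each of the 5, by 0.43 (position 80) to 1.81 cycles (position 115). Here too the SD over positions was larger, 2.72 cycles over 224. When scaled to positions 11, 12, 35, and 36, bronchial gland was again earlier at each of the 5. The differences then lay between -4.72 (position 115) and -3.34 cycles (position 80), all larger than this SD.

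The profile of the 5 positions was last compared with the rest of the card. Their mean scaled Cp was correlated over the 17 libraries with each of the 217 other positions detected in at least 8 libraries. The members themselves had Pearson correlations of 0.90 to 0.97 with this mean, of which each is a part. Among the others 3 positions reached 0.75, namely 97 (0.88), 205 (0.88), and 98 (0.79), and the next were 120 (0.58) and 122 (0.55). The median over the 217 was -0.17. The correlation over all libraries largely follows the division that chose the members. Over the 12 epithelial libraries alone it was 0.89 for position 97, 0.55 for position 205, and 0.22 for position 98. Position 92, at 0.54 over the 17 libraries, had 0.70 over these 12, above positions 205 and 98.

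Position 97 was thus alike within the epithelial libraries too. Its scaled Cp ran from -0.29 (lacrimal gland) and 0.07 (prostate) to 3.69 (lung) and 3.96 (bile duct) in the epithelial tissues, was 2.90 in liver, 6.47 in skeletal muscle, and 6.91 in spleen, and it was not detected in heart. In proximal tubule it was 4.00, and in glomerulus it did not amplify. Of the 5, position 114 followed it most closely, with an SD of the difference of 0.73 cycles over the 12 epithelial libraries. Liver, with higher expression than pancreas, lung, and bile duct, kept it out of the group.

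Position 205 lay nearest to position 116, with an SD of the difference of 1.38 cycles. Its scaled Cp was -3.87 in bronchial gland, -3.66 in lacrimal gland, -3.44 in intestinal villus, and -2.84 in salivary gland, against 1.51 in kidney, 1.62 in bile duct, and 1.77 in liver. It was 2.97 in proximal tubule and 4.99 in glomerulus, a difference of 2.02 cycles. Position 98 was late everywhere, from 4.26 (kidney) to 7.45 (bile duct) in the 7 epithelial tissues that had it, and was not detected in pancreas, any of the 4 other tissues, or glomerulus. Its likeness therefore rests largely on wells set to the limit.

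**Figure D5:**
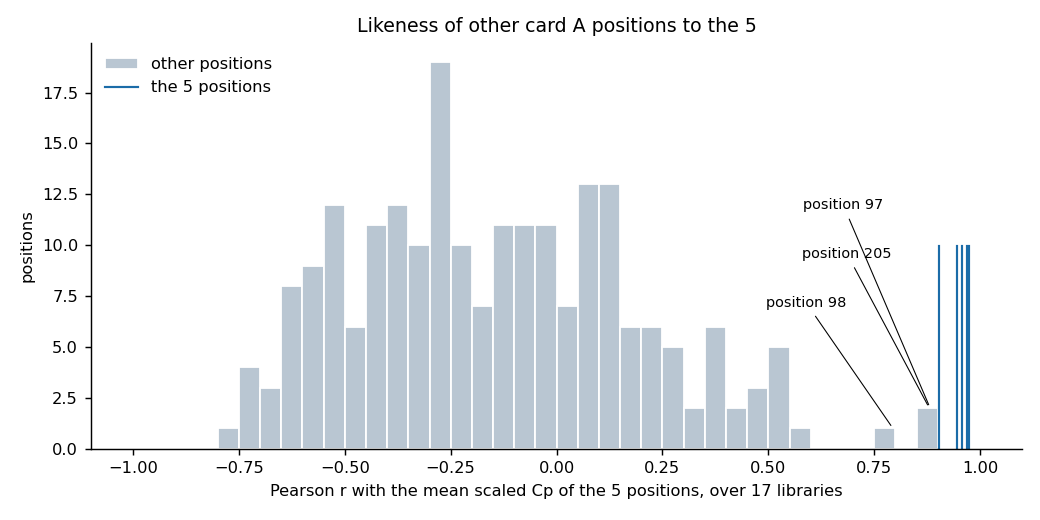
Number of card A positions (vertical axis) by their Pearson correlation with the mean scaled Cp of the 5 positions over 17 libraries; gray bars are the 217 other positions detected in at least 8 libraries and blue lines the 5 positions themselves. Positions 97, 205, and 98 lie between 0.79 and 0.88, apart from the others, which reach 0.58.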

How the data were processed

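The authors ran TaqMan rodent MicroRNA Array cards on an ABI Prism real-time instrument and took Cp values with the SDS software and RQ Manager. The values were deposited before any normalization to U6, and wells that did not amplify are listed at 50. Labels of the single samples name the human kit, the design text the rodent kit. Only card A was used. Columns were matched to tissues through the sample labels. The members and all lists were chosen with earlier results of these data known, as were the groups of tissues. Wells above 35 were set to 35, and each library was scaled to the median of 78 positions. The positions named were the 5 members, the 5 most correlated with their mean, and the 5 nearest to the threshold of the choice; others were named after their values were seen. miRNA lists prepared in case of named wells were not used. Gland tissues were compared at the 223 positions detected in at least 4 of the 8 tissues by two-sided exact permutation tests with Benjamini-Hochberg adjustment, other comparisons were not tested, and p-values measure the spread between tissues. The procedures were tested on simulated data. Alternatives were other scales, limits of 32 and 40, undetected wells at 40, and leaving out each tissue. Tools were matplotlib 3.10.9, scipy 1.17.1, pandas 2.3.3, numpy 2.4.6, and Python 3.11.15.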

Additional observations from a re-analysis of the deposited data

Results flagged for a closer look

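In 35 sets of values, 5 positions in 3 groups of libraries and 10 pairs in 2, the highest and lowest library were compared with the rest of the set. Different tissues are not replicates, and chance alone marks about 1 in 20 sets, so 2 marked sets are near the number chance gives. The first was the Cp of position 114 minus that of position 116 in kidney, -4.44 cycles, far from the other 7 epithelial tissues. The second was the scaled Cp of position 115 in glomerulus, 0.047, later than in the 4 microdissected epithelia by 2.63 cycles or more.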

How the results depend on the processing

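Under every scale and limit tried, all 5 positions were higher in proximal tubule than in glomerulus. Under the same settings they were also higher in each of the 4 microdissected epithelia than in glomerulus. The same counts with another value for undetected wells add no support, because all 5 were detected in these libraries at the main limit. Those with an epithelium left out add none either, because leaving 1 out cannot undo an order that holds for all 4. The 8 and the 4 tissues were apart at 5 positions, at 3 without scaling, and at 5 with each tissue left out. The count with a tissue left out adds no support, since the positions were chosen for this gap. Positions with an exact permutation p under 0.05 between glands and other epithelial tissues numbered 2, 0 without scaling, and 1 or 2 with each tissue left out (1 without prostate, lacrimal gland, or salivary gland). The cause was not tested. The median correlation over the 8 tissues was 0.69, and 0.55 to 0.84 with a tissue left out. The SD of position 114 minus position 116 was 1.86 cycles, and 0.78 to 2.01 with a tissue left out, an alternative added after the values were seen, the lowest without kidney. With a limit of 32 the differences between tubule and glomerulus were 3.01 to 4.03 cycles at 4 positions and at least 2.97 at position 80, not detected in glomerulus under this limit. Without scaling, glands minus other epithelial tissues turned to 0.52, 0.96, and 1.15 cycles at positions 114, 115, and 226. On the scale of the 4 repeated positions, added later, tubule minus kidney turned to -0.19, -0.81, and -0.17 at positions 80, 115, and 116, and villus minus small intestine to -1.56, -1.90, and -2.16 at positions 114, 115, and 226. The cause of these turns was not tested. No paired analysis was possible because single libraries leave no pairs. Single libraries and steps of a cycle limit precision.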
